A study of Mus musculus with 6 samples.

Results

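The transcripts described here are 32 genes of B cells, among them genes tied to B-1 cells, measured in cultures labelled as peritoneal macrophages. The genes were taken by symbol, and 32 of 32 were found among the 19973 genes listed. Old cells were compared with young ones. The old group was 18-month-old male C57BL/6 mice and the young group was 2-month-old male C57BL/6 mice, with no transgene or deletion named. Every mouse in both groups had been injected in the peritoneum with 200 µg of zymosan A, a yeast cell wall preparation that provokes a self-limited peritonitis. Peritoneal cells were lavaged after 72 hours, grown overnight in a medium with L-cell supplement, washed with PBS to remove cells that had not attached, and kept for 6 hours in PBS as vehicle before RNA was taken. Each age had 3 mice and is represented by 3 libraries. The RNA of each mouse was sequenced in triplicate, and the labels do not say whether a library stands for a mouse or for a repeat of one, so the spread behind each p-value is that of these libraries and may be technical.

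B cells recognise antigen through a membrane immunoglobulin of heavy and light chains held by the signalling pair Cd79a and Cd79b. B-1 cells are the B cells that live mainly in the peritoneal and pleural cavities of mice, renew themselves there and secrete natural IgM, whereas follicular B cells recirculate through spleen and lymph nodes, carry IgD, CD23 (Fcer2a) and CD21 (Cr2), and follow the chemokine receptor Cxcr5. In mice a heavy chain built with Ighv11-2 and a kappa chain built with Igkv14-126 form a well known antibody of B-1 cells that binds phosphatidylcholine.

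These germline V segments carried most of the V segment reads described below, and they are shown because the reads assigned to each depend on telling it from its nearest relative. Ighv11-2 (ENSMUSG00000096108) is annotated as an immunoglobulin V gene on chromosome 12, and the coding part of its V exon, 296 bases after the end of the leader, lies on the minus strand at chr12:114048241-114048536 of GRCm38. Its nearest listed relative is Ighv11-1 at chr12:113981879-113982174 on the same strand, identical at 292 of the 296 bases (98.65%). Igkv14-126 (ENSMUSG00000094345) is a V gene on chromosome 6, with the corresponding 287 bases on the plus strand at chr6:67896356-67896642. Its nearest relative is Igkv14-111 at chr6:68256583-68256869, identical at 261 bases (90.94%). The sequences run 5′ to 3′ in the sense direction of each gene, and capitals mark the bases that differ within a pair, 4 in the first and 26 in the second.
Ighv11-2: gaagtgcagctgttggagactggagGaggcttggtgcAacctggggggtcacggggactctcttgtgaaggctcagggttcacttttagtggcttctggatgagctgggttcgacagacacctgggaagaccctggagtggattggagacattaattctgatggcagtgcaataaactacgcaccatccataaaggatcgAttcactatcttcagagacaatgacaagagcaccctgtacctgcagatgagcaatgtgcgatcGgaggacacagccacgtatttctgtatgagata
Ighv11-1: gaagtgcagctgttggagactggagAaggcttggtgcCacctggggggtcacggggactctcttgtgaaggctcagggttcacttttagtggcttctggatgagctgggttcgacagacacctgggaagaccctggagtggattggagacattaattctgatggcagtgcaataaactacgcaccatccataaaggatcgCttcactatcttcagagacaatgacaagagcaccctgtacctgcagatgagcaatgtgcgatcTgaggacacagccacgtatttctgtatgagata
Igkv14-126: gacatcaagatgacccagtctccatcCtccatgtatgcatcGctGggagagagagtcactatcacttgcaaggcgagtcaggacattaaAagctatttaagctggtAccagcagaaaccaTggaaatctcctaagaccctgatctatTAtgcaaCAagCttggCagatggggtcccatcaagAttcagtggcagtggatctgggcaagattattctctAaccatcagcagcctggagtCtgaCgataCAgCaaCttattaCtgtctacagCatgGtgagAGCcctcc
Igkv14-111: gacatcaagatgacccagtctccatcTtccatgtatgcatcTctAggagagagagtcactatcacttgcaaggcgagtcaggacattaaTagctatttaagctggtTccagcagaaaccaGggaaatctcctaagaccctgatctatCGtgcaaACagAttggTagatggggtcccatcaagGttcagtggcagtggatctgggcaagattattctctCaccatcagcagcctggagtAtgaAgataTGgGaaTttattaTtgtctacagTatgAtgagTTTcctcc
Over the 6 libraries Ighv11-2 had 392 reads and Ighv11-1 had 2, while Igkv14-126 had 781 and Igkv14-111 had 5. A read that covers none of the 4 differing positions cannot be placed in one of the Ighv11 segments rather than the other, so their split is uncertain. The deposited values hold no read sequences, so mutations and joined segments were not examined.

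Library totals, recovered as whole reads from the deposited values, were 8163000 to 13008000 in old libraries and 9796000 to 12482000 in young ones. Macrophage marker genes were abundant in every library: Csf1r, the receptor for the macrophage growth factor, had 15065 to 23383 reads in old libraries and 15761 to 20645 in young ones. Over the 8 macrophage markers the summed normalized count, that is reads divided by a size factor per library, was 345257 to 430483 in old libraries and 274834 to 349804 in young ones. The libraries numbered 3 stand apart within each age. By a per-gene chi-square statistic in units of sampling noise, old replicate 3 lay 4.61 and 5.69 from the other old libraries, which lay 1.49 from each other. Young replicate 3 lay 4.86 and 3.50 from the other young libraries, which lay 1.76 from each other. Old replicate 3 also had the lowest normalized count of the old libraries for 28 of the 32 B cell genes. Values without these libraries are given where they end or add a call or move a called value by over 1.5 times.

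The B cell genes were higher in old cultures than in young ones, most of them by 10-fold or more, and young libraries had almost no reads of most of them. By limma on log2(normalized count + 1), with Benjamini-Hochberg adjustment over all genes tested and a threshold of 0.05, 26 of the 32 genes were higher in old and 0 were lower when every listed gene was tested. The same rule called 10.8% of all 19973 genes higher in old and 10.3% lower. The median log2 fold change (old minus young) over the 32 genes was 4.03, against -0.01 over all listed genes. edgeR's quasi-likelihood test on the recovered reads called 26 of the genes higher as well, against 9.97% of all genes. When genes needed a mean of at least 10 normalized counts over the 6 libraries, 27 of the 32 were tested and 23 were called higher, against 17.9% of 11795 genes called higher and 17.6% called lower. Of those 27, 20 had a young mean under 10 and entered only through the old libraries, so that count by itself says little. All 23 were also called when every listed gene was tested, where the largest of their limma adjusted p-values was 0.000572. Unless stated otherwise, adjusted p-values of single genes below are from the limma fit with the mean of at least 10.

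Every old library was above every young library for 28 of the 32 genes, against 17.1% of all genes. The reverse held for 1 of the 32, Blnk, against 16.3% of all genes. In 22 of the genes the young libraries held 10 reads or fewer in total, in 8 they held 1 to 3, and in Cr2, Fcer2a and Vpreb3 they held 0. Without both libraries numbered 3, limma called 24 of the 32 genes higher when every listed gene was tested, against 13.8% of all genes called higher and 13.7% lower. Ighd (limma adjusted p = 0.0502) and Zbtb32 (0.0712) were then no longer called. With the mean of at least 10 it called 25 of 27 higher and 0 lower, against 30.3% and 28.7% of the 11793 genes then tested. Most members pass that filter only through their old libraries, so this count by itself says little as well. These are bulk cultures, so fewer B cells and less B cell RNA per cell cannot be told apart.

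**Figure D1:**
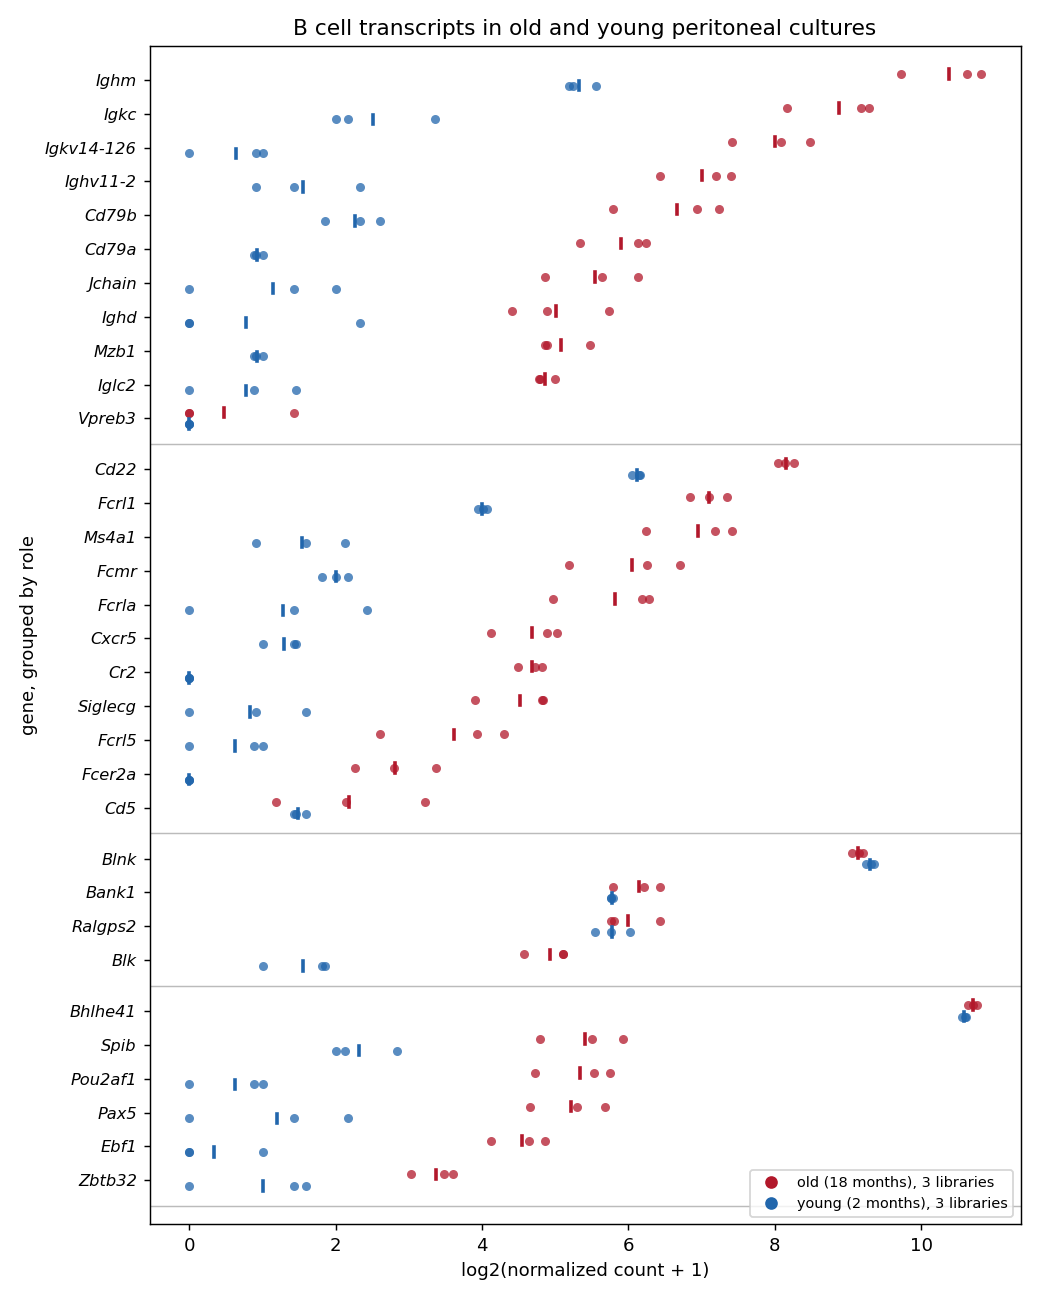
Normalized count of each of the 32 B cell genes in each library, on a log2(normalized count + 1) axis, with old libraries in red above young libraries in blue and genes grouped by role. Every gene except Blnk, Ralgps2, Cd5 and Vpreb3 has all 3 old points to the right of all 3 young points, and Bhlhe41, Bank1, Blnk and Ralgps2 are the genes with near levels at both ages.

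Of the 11 genes of antigen receptor and immunoglobulin chains, 10 were called higher in old when every listed gene was tested, against 10.8% of all genes. Ighm, the constant region of IgM (chromosome 12, 113418558 to 113422730), had 1318, 2109 and 665 reads in old libraries, against 46, 42 and 42 in young libraries. Every old library was far above every young one, and old replicate 3 was the lowest of the old. Normalized counts averaged 1407 ± 501 in old and 39.5 ± 5.87 in young (SD, n = 3 each), and reads pooled within each age and divided by the summed size factors gave 37.4 times as much in old (95% interval 31.4 to 44.9). On the log2 scale the difference was 5.06 ± 0.25 (SE, limma adjusted p = 6.47e-07). Intervals of such ratios are exact and cover counting error only.

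Igkc, the kappa light chain constant region (chromosome 6, 70726435 to 70726966), had 486, 732 and 226 reads in old libraries, against 3, 4 and 11 in young ones. The ages did not overlap, and the young library with the most reads was replicate 3. Its pooled ratio was 95.2 (60.0 to 161), the log2 difference 6.37 ± 0.40 and the limma adjusted p 2.65e-06. Without both libraries numbered 3 the log2 difference of Igkc was 7.15. Iglc2, a lambda constant region, had 26, 31 and 21 reads in old libraries and 0, 2 and 1 in young ones, a ratio of 30.9 (10.2 to 153) with a limma adjusted p of 0.000447. The lambda constant genes are close copies of one another, so reads may be shared among them. Kappa made up 94.1 ± 2.33% of Igkc plus Iglc2 reads in old libraries and 86.1 ± 17.3% in young ones (SD, n = 3 each), a difference within the spread of the young libraries (exact permutation test over libraries, 2-sided, p = 0.8, or 0.914 after adjustment over 8 shares). With Iglc1 and Iglc3 counted as lambda too, kappa held 88.3% of pooled light chain reads in old (exact binomial 95% interval 86.7 to 89.8) and 18 of 28, 64.3%, in young (44.1 to 81.4). Those intervals do not meet but cover counting error only, and that share was not tested over libraries.

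The largest ratio among the members belonged to Igkv14-126. It had 227, 418 and 134 reads in old libraries and 1, 1 and 0 in young ones. That is 266 ± 93.7 normalized counts in old and 0.628 ± 0.547 in young (SD, n = 3 each), a pooled ratio of 462 with a wide counting interval of 128 to 3825, and a log2 difference of 7.36 ± 0.39 (limma adjusted p = 1.02e-06). Ighv11-2 had 122, 196 and 67 reads in old libraries, against 4, 1 and 2 in young ones. It was higher in every old library than in every young one, with a ratio of 65.3 (31.4 to 163) and a log2 difference of 5.45 ± 0.42 (limma adjusted p = 1.13e-05). Per kilobase of exon the old levels were 936 ± 346 normalized counts for Igkc, 746 ± 265 for Ighm, 744 ± 262 for Igkv14-126 and 288 ± 92.7 for Ighv11-2. These SDs are over the 3 old libraries, and each of these genes was lowest in old replicate 3. The SDs therefore do not measure how far the genes differ within a library, which was not tested.

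Cd79a and Cd79b, which together carry the receptor's signal into the cell, were higher in old as well. Cd79a had 58, 87 and 31 reads in old libraries and 1 read in each young library, a ratio of 69.7 (23.4 to 341) and a log2 difference of 4.97 ± 0.42 (limma adjusted p = 1.94e-05). Cd79b had 102, 176 and 43 reads in old libraries and 4, 3 and 6 in young ones, a ratio of 29.3 (16.9 to 55.7) and 4.40 ± 0.40 on the log2 scale (limma adjusted p = 3.36e-05). Neither gene overlapped between ages. Without both libraries numbered 3 the log2 difference of Cd79b was 4.997.

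Ighd, the constant region of IgD that mature follicular B cells carry together with IgM, had 24, 61 and 16 reads in old libraries. In young libraries it had 4, 0 and 0 reads, all in replicate 1, and the ratio was 30.0 (11.4 to 112, limma adjusted p = 0.00183). Its log2 difference of 4.24 was 5.01 without young replicate 1. Jchain, the joining chain of secreted IgM and IgA, had 41, 81 and 22 reads in old libraries and 3, 0 and 2 in young ones (ratio 34.2, limma adjusted p = 0.000438). Mzb1, an endoplasmic reticulum protein that helps IgM assembly and secretion, had 24, 51 and 22 reads in old libraries and 1 in each young one (ratio 38.4, limma adjusted p = 0.000124). Mzb1 shares exon sequence on the same strand with SPATA24 in the annotation. Vpreb3, a precursor stage protein, had 0, 2 and 0 reads in old libraries and 0 in young ones, under the floor of 3 reads over a group, and no fold is given. Summed over these 11 receptor and immunoglobulin genes, normalized counts were 1584 to 3371 in old libraries and 48.3 to 67.4 in young ones, a 45.8-fold ratio of means.

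Among the 11 surface receptor genes 10 were called higher in old when every listed gene was tested, against 10.8% of all genes. Ms4a1 (CD20), the B cell surface protein targeted by rituximab in people, had 121, 199 and 59 reads in old libraries, against 2, 1 and 4 in young ones. The ages did not overlap, and the ratio was 64.3 (30.9 to 161) with a log2 difference of 5.41 ± 0.42 (limma adjusted p = 1.18e-05), or 6.05 without both libraries numbered 3. Fcmr, the Fc receptor for IgM, had 63, 121 and 28 reads in old libraries and 3, 4 and 3 in young ones (ratio 25.2, limma adjusted p = 7.35e-05). Fcrla, an intracellular Fc receptor-like protein of B cells, had 60, 90 and 24 reads in old libraries and 0, 5 and 2 in young ones (ratio 29.5, limma adjusted p = 0.000561), and its log2 difference of 4.53 was 3.89 without young replicate 1. Siglecg, an inhibitory sialic acid receptor known for restraining B-1 cells in mice, had 23, 32 and 11 reads in old libraries and 2, 1 and 0 in young ones (ratio 26.1, limma adjusted p = 0.00164).

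Young libraries held more reads of Cd22 and Fcrl1 than of the other surface receptors. Cd22, an inhibitory sialic acid receptor of B cells, had 235, 359 and 207 reads in old libraries and 65, 80 and 83 in young ones. All old libraries were near one another after normalization, at 284 ± 22.1 against 68.6 ± 2.76 in young (SD, n = 3 each), a ratio of 4.17 (3.60 to 4.85) and a log2 difference of 2.03 ± 0.11 (limma adjusted p = 1.01e-06). Fcrl1, an Fc receptor-like protein of B cells, had 136, 159 and 90 reads in old libraries and 15, 18 and 17 in young ones, a ratio of 9.14 (6.80 to 12.5) and 3.09 ± 0.19 on the log2 scale (limma adjusted p = 2.21e-06). Cd22 overlaps an antisense gene in the annotation, and whether counting used strand is not given in the sources used here.

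Follicular receptors, 3 in number, had few reads, nearly all of them in old libraries. Cr2 (CD21), the complement receptor, had 18, 32 and 20 reads in old libraries and 0 in each young one. Taking 3 reads over the young group as the floor, it was at least 27.7-fold higher in old (limma adjusted p = 0.000284). Fcer2a (CD23), the low-affinity IgE receptor, had 5, 11 and 3 reads in old libraries and 0 in each young one, at least 7.52-fold higher by the same floor (limma without the filter, adjusted p = 0.00153). Cxcr5, which guides cells into follicles, had 24, 37 and 13 reads in old libraries and 1, 2 and 2 in young ones, a ratio of 17.6 (7.20 to 55.7, limma adjusted p = 0.000647). Cxcr5 shares 110 bases of exon with Bcl9l on the opposite strand, a gene with 657 reads over the libraries.

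The B-1 linked receptors were scarce as well. Fcrl5 had 12, 22 and 4 reads in old libraries and 1, 0 and 1 in young ones, a ratio of 22.6 (5.83 to 193; limma without the filter, adjusted p = 0.00286, or 0.0554 without young replicate 2). Cd5, which marks the B-1a subset and is also a general T cell surface protein, had 7, 4 and 1 reads in old libraries and 2 in each young library. Those libraries overlapped, and Cd5 did not pass the test (ratio 2.37, interval 0.825 to 7.71; limma without the filter, adjusted p = 0.464).

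**Figure D2:**
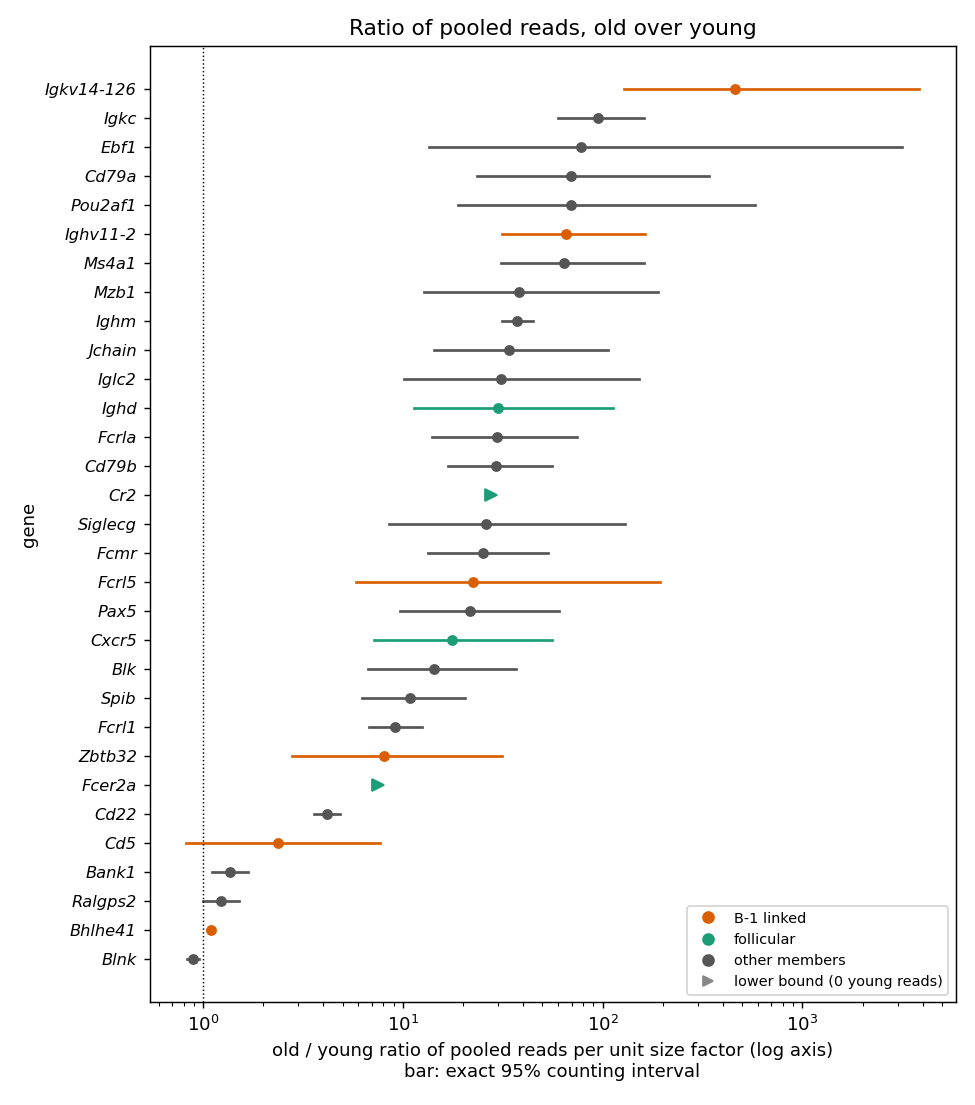
Pooled old over young ratio of each member with its exact 95% counting interval, on a log axis, with B-1 linked genes in orange and follicular genes in green. Triangles mark lower bounds for Cr2 (27.7) and Fcer2a (7.52), whose young libraries had 0 reads, Igkv14-126 has the highest ratio (462), and Blnk (0.894), Bhlhe41 (1.09), Ralgps2 (1.23) and Bank1 (1.36) lie near 1.

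The intracellular signalling genes split. Blk, a Src family kinase largely restricted to B cells, had 28, 39 and 18 reads in old libraries and 1, 3 and 3 in young ones, a ratio of 14.4 (6.70 to 36.9) and a log2 difference of 3.37 ± 0.46 (limma adjusted p = 0.000416). The other 3 of the group, Blnk, Bank1 and Ralgps2, were well detected in every library of both ages and did not pass. Blnk, the adaptor that couples the receptor to phospholipase C and is also present in macrophages, had 494, 664 and 418 reads in old libraries and 630, 747 and 717 in young ones. After normalization the old libraries lay below the young ones, at 563 ± 30.0 against 632 ± 24.8 (SD, n = 3 each; log2 difference -0.17 ± 0.07, limma adjusted p = 0.107). Bank1, a scaffold of B cell signalling, averaged 71.0 ± 15.5 in old and 53.7 ± 0.561 in young (limma adjusted p = 0.148). Without old replicate 3 its log2 difference was 0.55 with a limma adjusted p of 0.0190. Ralgps2, an exchange factor for Ral GTPases, averaged 64.6 ± 18.1 in old and 54.4 ± 9.34 in young and overlapped (limma adjusted p = 0.462).

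Of the 6 transcription regulators, 5 were called higher in old when every listed gene was tested, against 10.8% of all genes. Pax5, which sets and keeps B cell identity, had 32, 59 and 19 reads in old libraries and 0, 4 and 2 in young ones (ratio 21.8, interval 9.69 to 60.6, limma adjusted p = 0.000899), and its log2 difference of 4.01 was 3.41 without young replicate 1. Ebf1, an early B lineage factor, had 20, 33 and 13 reads in old libraries and 1, 0 and 0 in young ones (ratio 78.4, interval 13.6 to 3141, limma adjusted p = 0.000729). Pou2af1, the coactivator of octamer-binding factors at immunoglobulin promoters, had 44, 53 and 20 reads in old libraries and 1, 0 and 1 in young ones (ratio 69.5, limma adjusted p = 0.000136). In each of the 3 genes no young library reached the lowest old one. Spib, an Ets family factor of B cells and plasmacytoid dendritic cells, had 37, 70 and 21 reads in old libraries and 3, 7 and 4 in young ones (ratio 10.9, limma adjusted p = 0.000398). Zbtb32, a B-1 linked repressor, had 6, 13 and 8 reads in old libraries and 2, 0 and 2 in young ones (ratio 8.01, interval 2.79 to 31.5; limma without the filter, adjusted p = 0.00933, or 0.0767 without old replicate 2).

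Bhlhe41, needed for the development of B-1a cells in mice and also a gene of resident macrophages, had more reads than any other B-1 linked gene at both ages. It had 1406, 2037 and 1258 reads in old libraries and 1544, 1788 and 1779 in young ones. Normalized counts averaged 1673 ± 72.0 in old and 1542 ± 34.2 in young (SD, n = 3 each), a log2 difference of 0.12 ± 0.06 that did not pass (limma adjusted p = 0.182). Without both libraries numbered 3 the limma adjusted p was 0.0439. Bhlhe41 alone held most of the reads of the 6 B-1 linked genes in every old and every young library.

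The octamer ATGCAAAT (ATTTGCAT on the other strand), the site read by the factors that Pou2af1 assists, was searched on both strands in the 250 bases before the start of each gene in RefSeq on GRCm38.p6. Promoters were found for 21 of the 32 members, and Cd79b, Ighm, Ighd, Igkc, Iglc2, Ighv11-2, Igkv14-126, Mzb1, Ms4a1, Cxcr5 and Blk had none in the table. The octamer was present in 2 of the 21, Vpreb3 and Blnk, and in at least 1 promoter of 1.813% of the 27025 genes in the table. Neither of these 2 genes was among those called higher.

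The V segments showed which antibody genes the reads came from. Reads were assigned to 75 V segments, 37 heavy, 35 kappa and 3 lambda, with 441, 771 and 250 V segment reads in old libraries and 14, 19 and 13 in young ones. Igkv14-126 supplied 84.4, 86.2 and 82.7% of kappa V reads in the old libraries. Ighv11-2 supplied 77.7, 75.1 and 77.9% of heavy V reads in the old libraries. Both shares were near in all 3 old libraries, although old replicate 3 had the fewest V reads.

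Pooled within each age, Igkv14-126 made up 85.0% of kappa V reads in old (exact binomial 95% interval 82.6 to 87.3) and 2 of 16 reads, 12.5%, in young (1.55 to 38.3). Ighv11-2 made up 76.4% of heavy V reads in old (72.4 to 80.0) and 7 of 24 reads, 29.2%, in young (12.6 to 51.1). Both segments together made up 79.6% of all V reads in old (77.5 to 81.7) and 9 of 46 reads, 19.6%, in young (9.36 to 33.9). The intervals of old and young do not meet in any of the 3 shares. Over libraries, the kappa share was 84.4 ± 1.74% in old and 13.1 ± 12.5% in young, and the heavy share was 76.9 ± 1.57% in old and 28.5 ± 16.0% in young (SD, n = 3 each). Each had an exact 2-sided permutation p of 0.1, the smallest that 3 libraries against 3 allow, and 0.133 after Benjamini-Hochberg adjustment over the 8 shares tested, so the design cannot pass a threshold of 0.05.

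The other 73 V segments were also higher in old, but less so. They had 298 reads in old and 37 in young libraries, a pooled ratio of 9.56 (6.78 to 13.8), against 462 for Igkv14-126 and 65.3 for Ighv11-2, whose intervals lie above it. The next segments by reads were the lambda segment Iglv1, with 8, 15 and 0 reads in old libraries and 1, 0 and 1 in young ones, and Igkv10-95, with 5, 7 and 5 in old libraries and 0 in young ones. Iglv2 had 3, 8 and 0 reads in old libraries and 0, 4 and 0 in young ones, and Iglv3 had 4, 2 and 2 in old libraries and 0 in young ones. Among other kappa segments, Igkv4-59 had 11 reads in old and 1 in young, Igkv1-117 had 7 in old and 4 in young, and Igkv8-24 had 7 in old and 1 in young. Among other heavy segments, Ighv1-41 had 10 reads in old and 2 in young, Ighv5-17 had 8 in old and 0 in young, and Ighv10-3 had 7 in old and 1 in young. Ighv1-26 and Ighv2-2 tied for the fifth heavy place, with 7 in old and 0 in young for Ighv1-26, and 3 in old and 4 in young for Ighv2-2. No segment after the leading pair held more than 23 reads in old.

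A further phosphatidylcholine-binding pair is known in mouse B-1 cells, Ighv12-3 with Igkv4-91, and was looked up after the values had been seen. Ighv12-3 had 2, 3 and 0 reads in old libraries and 0, 0 and 1 in young ones. Igkv4-91 had 0, 1 and 1 reads in old libraries and 0, 2 and 2 in young ones. These counts are too low to set the ages apart.

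**Figure D3:**
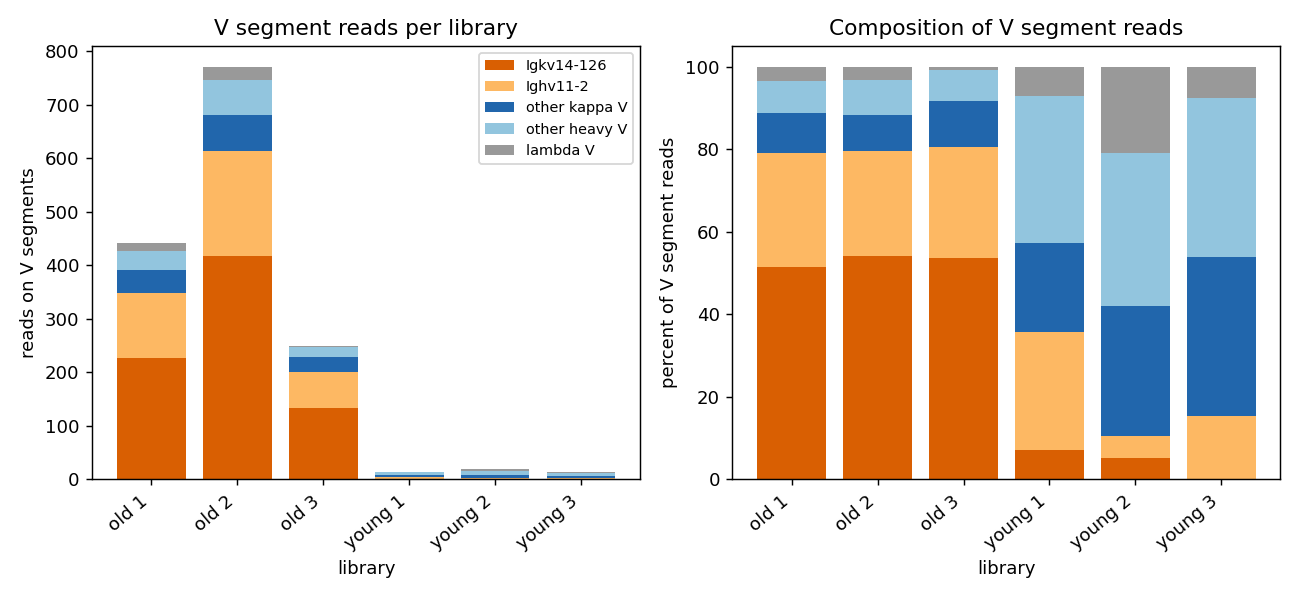
V segment reads per library (left) and the same reads as percent of each library's V reads (right), stacked by segment group, with old libraries left of young ones. Igkv14-126 and Ighv11-2 together fill 79.1 to 80.4% of the old bars, and the young bars rest on 13 to 19 reads each.

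The constant regions of the heavy chain were nearly all of the IgM class at both ages. Ighm held 96.8% of heavy chain constant reads in old libraries and 97.0% in young ones, pooled. Switched classes, that is IgG and IgA, held 33 of 4226 reads in old, 0.781% (0.538 to 1.09). In young they held 0 of 134, with an exact upper limit of 2.72%, so no difference was detectable at this depth. Ighd made up 2.32% of Ighd plus Ighm reads in old and 2.67% in young on average (exact permutation p = 1). Of the 8 other immunoglobulin constant genes 7 were listed and 3 were called higher without the filter, against 10.8% of all genes. These were Iglc3 (20, 27 and 11 reads in old libraries; 0, 4 and 0 in young), Iglc1 (19, 30 and 6 in old; 2, 1 and 0 in young) and Ighg2b (7, 4 and 3 in old; 0 in young). Igha had 2, 6 and 0 reads in old libraries and 0 in young ones and did not pass.

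Set side by side, B-1 linked genes held most of the reads at both ages, but that share rested on few genes. Ighv11-2, Igkv14-126, Cd5, Bhlhe41, Zbtb32 and Fcrl5 made up 95.7% (95.2 to 96.2) of their reads plus those of Ighd, Fcer2a, Cr2 and Cxcr5 in old libraries, against 99.8% in young ones. Without Bhlhe41 the share was 82.5% (80.4 to 84.3) in old and 21 of 30 reads, 70.0% (50.6 to 85.3), in young. Without Bhlhe41 and the V segments as well, a choice made after seeing the data, Cd5, Zbtb32 and Fcrl5 held 77 of 341 reads in old, 22.6% (18.3 to 27.4), and 12 of 21 in young, 57.1% (34.0 to 78.2). So in old libraries the V segments held most of the B-1 linked reads apart from Bhlhe41, and the 4 follicular genes had more reads than the other 3 B-1 linked genes.

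The follicular genes were themselves higher in old. Their summed normalized count was 66.0 to 121 in old libraries and 1.69 to 5.03 in young ones, and all 4 were called higher when every listed gene was tested. Of the 6 B-1 linked genes 4 were called higher in that test, with Bhlhe41 and Cd5 not passing. The same test called 10.8% of all genes higher and 10.3% lower.

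The wider B cell list moved the same way. Of 23 further B cell genes 19 were called higher and 0 lower without the filter, against 10.8% and 10.3% of all genes, and the median log2 difference was 1.14. The 4 with the smallest adjusted p in limma were Cd72, Pik3ap1, Ikzf3 and Irf4. Cd72, a coreceptor, averaged 667 ± 27.4 in old and 239 ± 18.8 in young (ratio 2.78). Ikzf3, the lymphoid factor Aiolos, had 73, 127 and 46 reads in old libraries and 6, 9 and 5 in young ones (ratio 14.6). Pik3ap1, an adaptor to PI3 kinase, and Irf4, a factor of activated B cells and plasma cells, had ratios of 1.76 and 6.27. Unlike most members, 14 of the 23 genes had a mean of at least 10 normalized counts in young libraries. Pik3ap1 averaged 3256 in old and 1854 in young. Which cells the reads of such genes came from was not tested.

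Of 17 genes of receptor signalling that other leukocytes also use, 5 were called higher and 1 lower without the filter. That fit called 10.8% of all genes higher and 10.3% lower. The median log2 difference of the 17 genes was 0.15. Prkcb (ratio 2.24), Malt1 (1.65) and Ptpn6 (1.43) were higher in old, and Inpp5d, the inositol phosphatase SHIP1, was lower (0.803). Among 7 further genes tied to B-1 cells, 6 were called higher without the filter. The 4 named were Il5ra, the interleukin 5 receptor that B-1 cells share with eosinophils (24, 34 and 17 reads in old libraries; 2, 3 and 0 in young), Ahr (ratio 2.02), Plscr1 (1.52) and Cd9 (1.53). Ahr, Plscr1 and Cd9 were well detected in young libraries too, averaging 50.7, 130 and 2972 normalized counts there. Which cells those reads came from was not tested.

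Genes of precursor, germinal centre and plasma cell stages were few among the listed genes or moved in both directions. For scale, 10.8% of all genes were called higher and 10.3% lower without the filter. Of 8 precursor genes 2 were among the genes listed, Il7r, the interleukin 7 receptor (ratio 3.21, limma adjusted p = 2.68e-07), and Cd93, which did not pass. Rag1, Rag2, Dntt, Vpreb1, Vpreb2 and Igll1 were not among them. Of 6 germinal centre genes 5 were listed, with S1pr2 higher (1.59) and Mybl1 lower (0.425). Of 7 plasma cell genes 6 were listed, with Sdc1 (CD138, ratio 2.81) and Irf4 higher and Tent5c lower (0.420), whereas Xbp1, the secretory factor, had 1180, 1594 and 990 reads in old libraries and 1309, 1597 and 1828 in young ones and did not pass (limma adjusted p = 0.467).

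Markers of other cells moved with the B cell genes. All 12 T cell markers were called higher in old without the filter, against 10.8% of all genes. Their summed normalized counts were 202 to 313 in old libraries and 96.3 to 110 in young ones. Most of the sum in every library was Cd28, whereas the other T cell markers had few reads in young libraries. Lck had 18, 28 and 12 reads in old libraries and 3, 4 and 4 in young ones, Cd28 averaged 148 ± 25.6 in old and 94.5 ± 5.29 in young, and Cd8b1 was at 0 in every young library. Of 9 mast cell markers 6 were called higher, led by Cma1 (ratio 11.4), Cpa3 (9.37), Mcpt4 (29.9) and Tpsb2 (9.34), and their sums were 565 to 640 in old and 50.3 to 77.7 in young. Of 6 natural killer cell markers 5 were listed and 2 called higher, Eomes and Nkg7, with sums of 17.8 to 24.8 in old and 3.38 to 6.04 in young. Klrb1c had 9, 11 and 8 reads in old libraries and 6, 4 and 3 in young ones and did not pass, Nkg7 had 5, 6 and 4 in old libraries and 0, 1 and 0 in young ones, and Eomes and Ncr1 were at 0 in every young library. What part other cells have in the B cell values was not tested.

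The remaining lists were shorter or mixed. Calls in them are from the fit of every listed gene, which called 10.8% of all genes higher and 10.3% lower. Of 8 neutrophil markers 4 were listed, with S100a8 (2.78) and Csf3r (1.63) higher, and sums of 994 to 1102 in old and 488 to 498 in young. Cxcr2 had 0, 1 and 1 reads in old libraries and 0 in young ones, and Camp had 0 in old libraries and 2, 0 and 0 in young ones, both under the floor of 3. Of 5 eosinophil markers 3 were listed and Il5ra alone was called higher, while Siglecf had 3, 8 and 3 reads in old libraries and 3, 8 and 4 in young ones. Of 6 dendritic cell markers 1 was called higher, Ccr7 (ratio 4.13). The sums were 34.3 to 56.2 in old, most of it Ccr7, and 16.9 to 22.8 in young. Of 7 mesothelial and stromal markers 6 were listed, with Col3a1 (1.89) and Pdgfra (2.41) higher and Col1a1 lower (0.629). Of the 8 macrophage markers 5 were called higher without the filter, among them Cd14 (1.88), Cd68 (1.70), Mertk (1.25) and Itgam (1.29).

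The summed levels of the B cell genes also differed among the old libraries, and old replicate 3 was the lowest. Relative to old replicate 1, the receptor and immunoglobulin genes summed to 116% in old replicate 2 and 54.6% in old replicate 3, with 1.66 to 2.32% in the young libraries. The surface receptors summed to 108% in old replicate 2 and 69.5% in old replicate 3, with 10.9 to 11.8% in young. On the same scale T cell markers, most of whose sum is Cd28, were at 126% and 81.2% in old replicates 2 and 3. Mast cell markers were at 113% and 102% in those libraries. Macrophage markers, most of whose sum is Lyz2, were at 80.5% in old replicate 3 and 64.1 to 81.5% in young libraries. These are descriptions of 3 libraries, with no test. Summed over all 32 members the ratio of old to young means was 2.44, and over the 28 members other than Blnk, Bhlhe41, Bank1 and Ralgps2 it was 22.0, with sums of 2294 to 4511 in old and 160 to 167 in young.

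**Figure D4:**
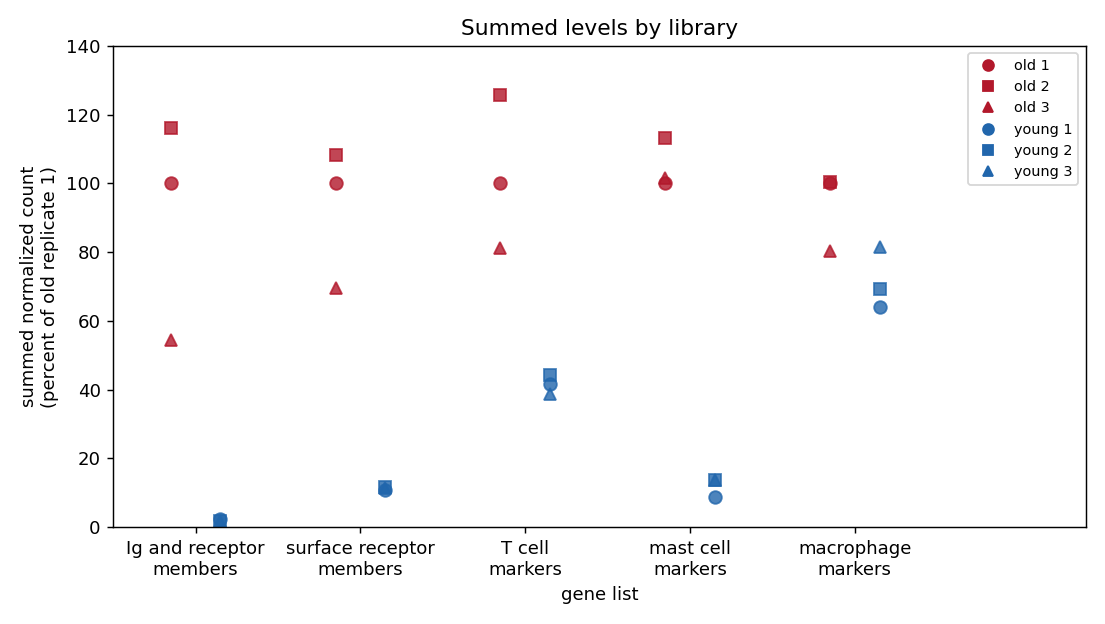
Summed normalized count of 2 member groups and of 3 marker lists in each library, as percent of old replicate 1, with old libraries drawn left of young ones. The receptor and immunoglobulin genes reach 54.6% in old replicate 3 and 2.32% at most in young libraries, whereas macrophage markers are at 80.5% in old replicate 3 and 64.1 to 81.5% in young libraries.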

How the data were processed

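Per the labels, libraries followed the TruSeq protocol. The deposited table holds normalized counts of the kind signal: the authors divided reads per gene by a size factor per library, and the submitters' processing notes name DESeq2 and mm10 without versions. Aligner, counter, annotation release and strandedness were not given in the sources used here. Whole reads were recovered by dividing each column by its smallest positive value, and 100% came out whole within 0.01. Symbols and positions come from GENCODE M21 on GRCm38, and 19917 of 19973 identifiers had a symbol. V sequences come from the M21 transcripts, with the 11 bases that complete the leader dropped.

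The members and all lists were chosen with earlier results of these data known. Tests used limma 3.58.1 (trend) in R 4.3.3 on log2(normalized count + 1), all 6 libraries, genes with a mean of at least 10, and Benjamini-Hochberg adjustment over all genes tested. This scale understates changes of low genes. edgeR 4.0.16, on recovered reads, called 4324 genes and limma 4183. DESeq2 1.42.0 and other filters, pseudocounts and scalings were alternatives. The limma step was tested on simulated data. Intervals are exact binomial at 95%, a count of 0 was set to a floor of 3 reads over the group, and PCR copies are not independent molecules. No pair of libraries agreed within sampling noise, and each was counted as 1 sample, which does not show that they come from separate mice.

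Named genes are the 32 members, up to 4 called genes per list by adjusted p (the 2 most abundant where none was called), and the 5 heavy, 5 kappa and 3 lambda V segments with most reads. Other names were added after values were seen, and some genes of the lists are not reported here. Same-numbered old and young libraries deviated from their group means with correlations of -0.38, -0.36 and -0.68, and the numbers do not pair the samples.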

Additional observations from a re-analysis of the deposited data

How the results depend on the processing

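limma called 4183 of all genes, 2643 with the replicate block, 6960 without both libraries numbered 3, and 2940 to 5660 with one library left out. With every listed gene tested, limma called 26 of the 32 members higher, 25 with the replicate block, 24 without both libraries numbered 3 and 25 to 27 with one library left out, combinations chosen after seeing the data. Of all 19973 genes the same fits called 2160, 1088, 2754 and 1112 to 2488 higher, in that order. Zbtb32 lost its call with the block (limma adjusted p = 0.0613). With the mean of at least 10 the number was 23, also with the replicate block, 8 with a mean of at least 50, for which 12 were tested, and 19 to 23 with one library left out, but most members are tested there only through their old libraries. Over all genes these fits called higher 2107 of 11795, 1281 of 11795 with the block and 1928 of 9573 with a mean of at least 50. With one library left out the number was 1444 to 2772 of 11739 to 11846 genes. The numbers do not pair the libraries. The B-1 linked share of 95.7% in old became 94.8% without the V segments, 82.5% without Bhlhe41, 97.6% per exonic length and 95.5 to 96.4% with one old library left out. It was 22.6% without both the V segments and Bhlhe41, an alternative chosen after seeing the data. The kappa share in old, 94.9% of pooled reads, was 88.3% with Iglc1, Iglc2 and Iglc3 as lambda and 93.8 to 95.5% with one old library left out. Igkv14-126 and Ighv11-2 held 79.6% of V reads in old, 82.0% of heavy and kappa reads and 79.5 to 79.8% with one old library left out, both chosen after seeing the data. The summed ratio of 2.44 was 1.52 without Igkc, Ighm and the V segments, 16.7 without Blnk, Bhlhe41, Ralgps2, Fcrla and Siglecg, and 2.22 to 2.73 with one library left out. No direction of a called member reversed. Fcer2a, Fcrl5 and Zbtb32 were called in limma and edgeR with the filter lifted. Counting error limits the young values, since 22 members had 10 reads or fewer there.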
